A study of Mus musculus with 21 samples.

Results

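SRSF3 and SRSF7 crosslinking to cytoplasmic RNA was compared in the mouse embryonal carcinoma line P19, from the SRSF3 cytoplasm list of positions (4 pooled replicates) and the SRSF7 cytoplasm list (3 pooled replicates). These 7 samples are 7 of the 21 of the study, and the 2 lists are 2 of its 6. The other 4 lists hold chromatin and nucleoplasm for the same proteins and serve here only to set the cytoplasm beside them. The cells expressed SRSF3-GFP or SRSF7-GFP, so each library reports on a tagged protein, and how the fusions were expressed, or in how many clones, is not stated in the labels. All groups were grown in the same medium, irradiated at 254 nm with 100 mJ/cm2 and split into fractions before individual-nucleotide crosslinking and immunoprecipitation (iCLIP). Nothing in the labels says whether the replicates came from separate cultures.

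SR proteins bind RNA through an RNA recognition motif and carry a domain rich in serine and arginine. SRSF3 and SRSF7 act in splicing and polyadenylation in the nucleus, and both shuttle to the cytoplasm, where they accompany exported mRNA. In iCLIP, ultraviolet light fixes a protein to the RNA base it contacts, and cDNA synthesis tends to end next to that base, so cDNA ends locate the contacts.

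A listed position is 1 nucleotide wide, and its value was read as the number of cDNAs, with the sign as the strand. The SRSF3 list held 58686 positions and 257089 cDNAs, and the SRSF7 list held 142444 positions and 367298 cDNAs. The mean was 4.38 cDNAs per position for SRSF3 and 2.58 for SRSF7, and 61.1% of SRSF3 positions and 71.6% of SRSF7 positions carried a single cDNA. Levels below are therefore shares of each list's summed cDNAs. Each protein has 1 pooled value, so the spread between replicates is unknown and no p-value was computed. Intervals are exact 95% Clopper-Pearson intervals for shares and conditional exact binomial intervals for ratios. They cover counting error only, since amplified cDNAs need not be independent molecules. A locus missing from a list has not been shown to be unbound. Only positions that passed the authors' filter (FDR < 0.05) are listed, so cDNAs that failed it are not seen. As a yardstick for counting alone, 3 cDNAs correspond to 0.00117% of the SRSF3 list and 0.000817% of the SRSF7 list. No library from untagged cells is among the samples, so no background was subtracted.

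Mitochondrial transcripts, which mark the cytoplasm, were compared between the fractions first. They held 16.7% of the SRSF3 cDNAs in cytoplasm, against 9.79% in nucleoplasm and 0.196% in chromatin. They held 8.89% of the SRSF7 cDNAs in cytoplasm, against 1.44% in nucleoplasm and 0.322% in chromatin. For both proteins the cytoplasm list carried the highest share of the 3 fractions. The SRSF3 nucleoplasm share was nonetheless above the SRSF7 cytoplasm share, so these values do not show how well the fractions were separated. Nuclear RNAs could not be checked by name, because no annotation of the mouse build mm9 was used here, and nuclear-genome loci are given by their mm9 position alone.

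The cytoplasmic cDNAs of both proteins were concentrated on a few loci, more so for SRSF3. A locus here joins listed positions of all 6 lists lying within 10000 nt of each other on 1 strand, and it may therefore hold several genes or only a piece of one. The highest locus held 21.9% of the SRSF3 cDNAs and 17.3% of the SRSF7 cDNAs. The 10 highest loci of each list held 49.4% for SRSF3 and 37.7% for SRSF7, and 7 of these 10 were the same. SRSF3 was listed at 8267 loci and SRSF7 at 12499, of which 4047 were listed for both. These shared loci are 49.0% of the SRSF3 loci and 32.4% of the SRSF7 loci. Among the 100 highest loci of each list, 60 were shared.

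A locus was compared when it held at least 50 cDNAs in both lists together and at least 10 in each, and 866 did. It was counted as higher for one protein when the whole interval of the ratio of shares lay beyond 2-fold. SRSF3 was higher at 121 loci, 14.0% of those compared, and SRSF7 at 179 loci, 20.7%, with 566 in neither set. The SRSF3-higher loci held 15.6% of the SRSF3 cDNAs and 3.81% of the SRSF7 cDNAs. The SRSF7-higher loci held 3.08% of the SRSF3 cDNAs and 15.9% of the SRSF7 cDNAs. The median log2 ratio of SRSF3 over SRSF7 over all compared loci was -0.11. The balance of the 2 sets depended on what the shares were taken of. With mitochondrial RNA and the 10 highest loci of either list left out, SRSF3 was higher at 172 loci and SRSF7 at 126. SRSF3-higher loci were then 57.7% of all calls, against 40.3% with everything included.

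**Figure D1:**
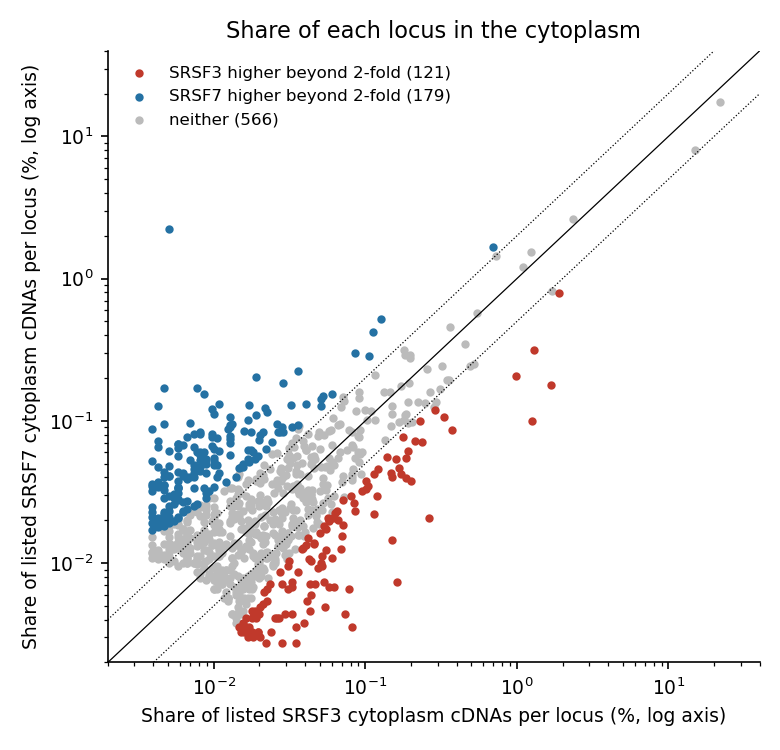
Share of each compared locus in the SRSF3 cytoplasm list (horizontal, percent, log axis) against its share in the SRSF7 cytoplasm list (vertical, percent, log axis). Each point is 1 of 866 loci, the solid line marks equal shares and the dotted lines mark 2-fold, and colours give the 121 SRSF3-higher, 179 SRSF7-higher and 566 remaining loci. The point far above the rest at the left is the chromosome 17 minus-strand locus, with 0.00506% of SRSF3 and 2.25% of SRSF7 cDNAs.

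Among the loci that led the SRSF3 list, several were short and much less prominent for SRSF7. The chromosome 6 plus-strand locus at 47731614 to 47731749, only 136 nt long, held 4326 SRSF3 cDNAs and 652 SRSF7 cDNAs. Its share was 1.68% for SRSF3 and 0.178% for SRSF7, a log2 ratio of 3.24 (3.13 to 3.37), and it ranked number 6 for SRSF3 and number 35 for SRSF7. Both proteins had their highest position in that locus at the same nucleotide, 47731689, with 410 SRSF3 cDNAs and 82 SRSF7 cDNAs.

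On the minus strand of chromosome 18, the 177 nt locus at 73692985 to 73693161 held 3319 SRSF3 cDNAs and 1148 SRSF7 cDNAs, a log2 ratio of 2.05 (1.95 to 2.14). The difference was larger at the summit nucleotide. Position 73693102 alone carried 1199 SRSF3 cDNAs and 127 SRSF7 cDNAs, a log2 ratio of 3.75 (3.49 to 4.03). It made up 36.1% of the SRSF3 cDNAs of the locus and 11.1% of the SRSF7 cDNAs, although it was the highest position for both.

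The chromosome 11 plus-strand locus at 68884516 to 68887316 held 3219 SRSF3 cDNAs and 365 SRSF7 cDNAs, a log2 ratio of 3.66 (3.50 to 3.81). It ranked number 8 for SRSF3 and number 90 for SRSF7. Here the highest positions lay 16 nt apart, with 702 cDNAs at the SRSF3 summit and 59 at the SRSF7 summit. The chromosome 9 minus-strand locus at 78023133 to 78023258 was among the 10 highest for both proteins, with 4864 SRSF3 cDNAs and 2889 SRSF7 cDNAs. Its log2 ratio was 1.27 (1.20 to 1.33), and the same nucleotide was the summit for both.

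The highest log2 ratios came from loci with fewer cDNAs. The chromosome 17 minus-strand locus at 29291288 to 29350503 held 211 SRSF3 cDNAs and 13 SRSF7 cDNAs (log2 4.54, 3.73 to 5.47). The chromosome 7 minus-strand locus, only 5 nt long, at 111785248 to 111785252 held 415 SRSF3 cDNAs on 3 positions and 27 SRSF7 cDNAs on 2 positions (4.46, 3.90 to 5.08). The chromosome 2 minus-strand locus at 27395347 to 27405002 held 676 SRSF3 cDNAs and 76 SRSF7 cDNAs (3.67, 3.32 to 4.03). Of the 10 highest ratios, the lowest was 3.37. The 3 loci with at least 50 SRSF3 cDNAs and none listed for SRSF7 were led by the 30 nt chromosome 9 minus-strand locus at 55756630 to 55756659. It held 129 SRSF3 cDNAs on 4 positions, a share 61.4-fold that of 3 cDNAs in the SRSF7 list. Because the lists are filtered, this is not a lower bound on the difference.

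In the other direction, 1 locus stood far from all others. The chromosome 17 minus-strand locus at 80586414 to 80606648 held 13 SRSF3 cDNAs and 8257 SRSF7 cDNAs. That was 0.00506% of the SRSF3 list and 2.25% of the SRSF7 list, a log2 ratio of -8.80 (-9.71 to -8.02). It was the fourth highest locus for SRSF7 and ranked number 1335 for SRSF3. The SRSF3 cDNAs sat on 8 positions, and the SRSF7 cDNAs were spread over 1811. Its gene was not identified, so whether the locus encodes a tagged protein is not known here.

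Within that locus, 15 clusters (positions within 30 nt of each other) were listed for SRSF7 and 2 of them for SRSF3. The main cluster, at 80603669 to 80604778, was 1110 nt wide and held 9 SRSF3 cDNAs and 5817 SRSF7 cDNAs. SRSF7 was listed at 931 of its nucleotides, 83.9% of its width, and no single nucleotide of it exceeded 81 cDNAs. The cluster held 70.4% of the SRSF7 cDNAs of the locus, so SRSF7 was listed along most of this stretch without a dominant peak. The same cluster held between 65.4% and 79.8% of the cDNAs of the locus in each of the 6 lists of the study.

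The next loci in that direction were long and sparsely listed. The chromosome 4 plus-strand locus at 126698562 to 126716356 held 12 SRSF3 cDNAs and 621 SRSF7 cDNAs (log2 -5.18, -6.14 to -4.36). The chromosome 3 plus-strand locus at 129235325 to 129342573 held 11 SRSF3 cDNAs and 469 SRSF7 cDNAs, with the SRSF7 cDNAs over 388 positions (-4.90, -5.91 to -4.05). In the chromosome 3 plus-strand locus at 127248178 to 127319373, 20 SRSF3 cDNAs and 622 SRSF7 cDNAs were listed (-4.44, -5.17 to -3.80). That locus differed from its neighbours in the ranking in having only 54 SRSF7 positions. At 131 of the 863 loci with at least 50 SRSF7 cDNAs no SRSF3 position was listed. The other way, no SRSF7 position was listed at 3 of the 433 loci with at least 50 SRSF3 cDNAs. The SRSF7 list is the deeper of the pair. The highest of the 131 was the chromosome 17 minus-strand locus at 80637679 to 80689490, with 0 SRSF3 cDNAs and 600 SRSF7 cDNAs. Its SRSF7 share was 140-fold that of 3 cDNAs in the SRSF3 list, again not a lower bound.

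A more abundant locus with a higher SRSF7 share was the chromosome 19 minus-strand locus at 5794731 to 5803434. It held 1794 SRSF3 cDNAs over 663 positions and 6148 SRSF7 cDNAs over 1322 positions, a log2 ratio of -1.26 (-1.34 to -1.19). Single clusters in it went both ways, with 3 higher for SRSF3 and 13 higher for SRSF7. Its cluster at 5801802 to 5801842 carried 1 SRSF3 cDNA and 129 SRSF7 cDNAs.

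Several of the highest loci were close to even. The chromosome 11 minus-strand locus at 108872978 to 108873431 held 2.36% of SRSF3 cDNAs and 2.63% of SRSF7 cDNAs (log2 -0.15, -0.20 to -0.11). The chromosome 5 plus-strand locus at 147072566 to 147072924 held 1.24% of SRSF3 and 1.53% of SRSF7 cDNAs (-0.30, -0.36 to -0.24). The chromosome 3 plus-strand locus at 5860367 to 5860808 held 1.10% of SRSF3 and 1.20% of SRSF7 cDNAs (-0.13, -0.20 to -0.06). In these 3 loci the number of listed positions was also alike, 326 and 323, 243 and 265, and 219 and 230 for SRSF3 and SRSF7. Their summits did not coincide, lying 172, 225 and 78 nt apart.

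The SRSF3-higher loci were shorter than the SRSF7-higher ones. Their median span was 3.00 kb, against 25.4 kb for the SRSF7-higher loci. Measured between the cytoplasm positions of each locus alone, the medians were 0.348 kb and 20.3 kb. Under 200 nt lay 43 SRSF3-higher and 15 SRSF7-higher loci, and over 10 kb lay 29 SRSF3-higher and 143 SRSF7-higher loci. Of all 194 compared loci under 200 nt, 22.2% were SRSF3-higher and 7.73% SRSF7-higher, with a median log2 ratio of 0.68. Of the 412 loci of 10 kb and over, 7.04% were SRSF3-higher and 34.7% SRSF7-higher, with a median log2 ratio of -1.01. The order did not hold with positions of at least 3 cDNAs alone, from which the loci were built anew. The median span was then 180.5 nt for SRSF3-higher and 106 nt for SRSF7-higher loci, the opposite order. The SRSF7 list is deeper and has the larger share of single-cDNA positions. With the SRSF7 list thinned at random to the SRSF3 total, the median span was 3654.5 nt for SRSF3-higher and 26441.5 nt for SRSF7-higher loci. The other lists, chromatin and nucleoplasm included, were not thinned and still helped to set these spans. The span between cytoplasm positions alone was not recomputed after thinning. Whether depth contributes to the difference in span was therefore not tested.

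Mitochondrial RNA took a larger share of the SRSF3 list. It held 42945 SRSF3 cDNAs and 32637 SRSF7 cDNAs, or 16.7% (16.6 to 16.8) and 8.89% (8.79 to 8.98), a 1.88-fold difference (1.85 to 1.91). The share of positions differed more, 4.85% for SRSF3 and 1.37% for SRSF7. The ratio of cDNA shares was 1.86-fold for the plus strand and 2.09-fold for the minus strand, whose interval began at 1.999 and so just missed the 2-fold limit. Genes were named from the mitochondrial rows of the RefSeq table of build GRCm38.p6, which carries the same mitochondrial reference sequence as mm9. Of the minus-strand cDNAs, 4315 of 4413 for SRSF3 and 2979 of 3011 for SRSF7 fell within genes that the light strand is known to encode. Of the 37 mitochondrial genes, 22 were listed for both proteins and 15 for neither, and no position of either list lay between 6391 and 10996.

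The difference was smallest for the ribosomal RNAs and largest for the messenger RNAs. The ribosomal RNAs held 8.12% of SRSF3 and 5.72% of SRSF7 cDNAs, 1.42-fold (1.39 to 1.45). The transfer RNAs held 4.92% of SRSF3 and 2.06% of SRSF7 cDNAs, 2.39-fold (2.32 to 2.46). The messenger RNAs held 3.49% of SRSF3 and 1.07% of SRSF7 cDNAs, 3.26-fold (3.14 to 3.39). The list of positions behind these values was similar in size for ribosomal RNA, with 578 SRSF3 and 589 SRSF7 positions, and for transfer RNA, with 326 and 318. For messenger RNA it was longer for SRSF3, with 1911 positions against 1035 for SRSF7.

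Among the messenger RNAs, ND2, which encodes a subunit of the NADH dehydrogenase complex, held 1393 SRSF3 cDNAs and 175 SRSF7 cDNAs. Its share was 11.4-fold (9.71 to 13.4) higher for SRSF3. CYTB, which encodes cytochrome b, held 1021 SRSF3 cDNAs and 188 SRSF7 cDNAs, 7.76-fold (6.63 to 9.11). ND5, another NADH dehydrogenase subunit, held 1925 SRSF3 cDNAs and 388 SRSF7 cDNAs, 7.09-fold (6.35 to 7.93). Further subunits of that complex, ND1 at 5.68-fold and ND4 at 3.66-fold, were also beyond 2-fold. COX1, the catalytic subunit of cytochrome c oxidase, was the messenger RNA with the most cDNAs and was much more even, with 2425 SRSF3 cDNAs and 2087 SRSF7 cDNAs, 1.66-fold (1.56 to 1.76). ND6, the only messenger RNA from the light strand, was the 1 listed gene with a higher SRSF7 share. It held 268 SRSF3 cDNAs and 474 SRSF7 cDNAs, a ratio of 0.81-fold (0.69 to 0.94).

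Of the 22 listed genes, 14 were higher for SRSF3 beyond 2-fold and none was higher for SRSF7 beyond it. Transfer RNA genes beyond 2-fold ranged from TrnC at 2.54-fold to TrnH at 3.65-fold, the last on only 92 SRSF3 and 36 SRSF7 cDNAs. TrnL1, the transfer RNA gene for leucine next to the large ribosomal RNA, had the most cDNAs of its class, with 2501 for SRSF3 and 1398 for SRSF7. Of the 21 genes with a higher SRSF3 share, the ribosomal RNA genes were nearest to even, mt-Rnr1 (the small ribosomal RNA) at 1.30-fold and mt-Rnr2 (the large one) at 1.5-fold. ND6, in the other direction, was nearer still. The highest mitochondrial position was the same for both proteins. It was position 2647 in mt-Rnr2, with 1181 SRSF3 cDNAs and 1223 SRSF7 cDNAs. Position 338 in mt-Rnr1 was also high in both, with 786 SRSF3 and 508 SRSF7 cDNAs, as was position 2703 in TrnL1, with 819 and 491.

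**Figure D2:**
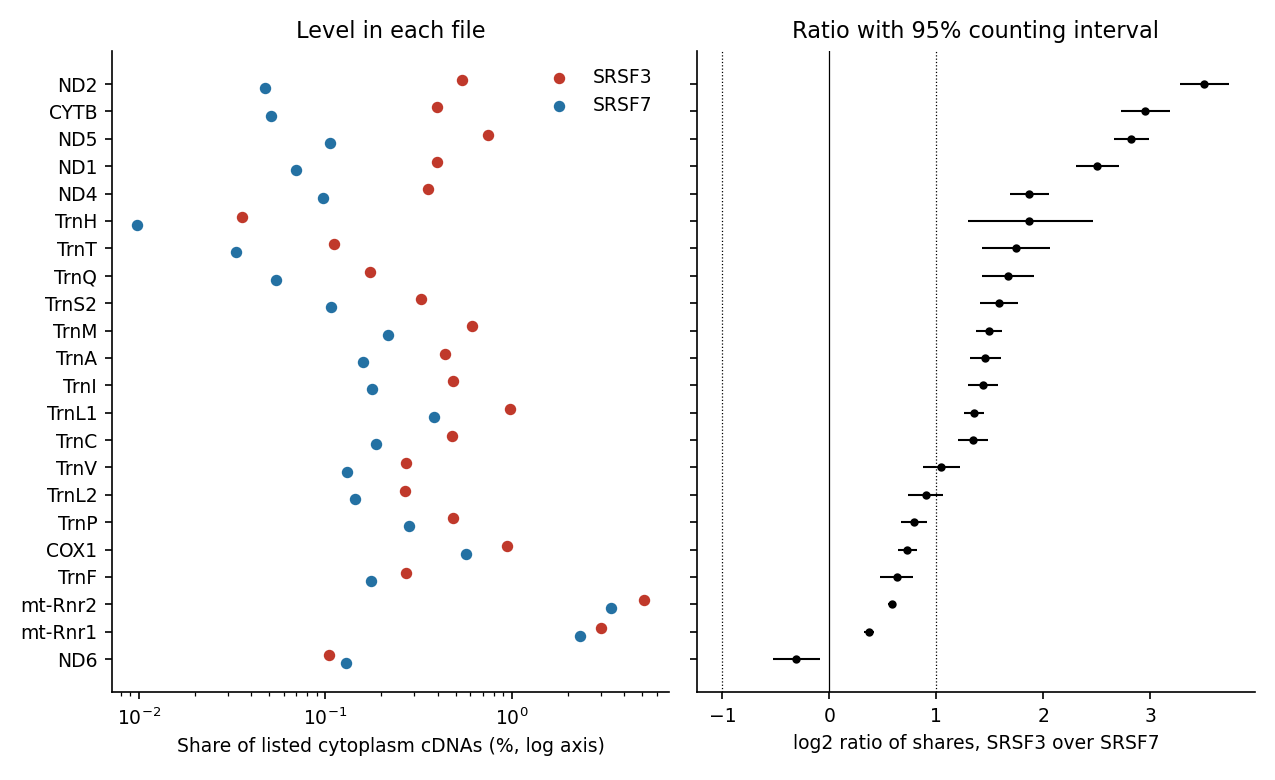
The 22 mitochondrial genes listed for both proteins, ordered by ratio, with the share of each cytoplasm list at the left (percent, log axis, SRSF3 red and SRSF7 blue) and the log2 ratio of SRSF3 over SRSF7 at the right with its 95% counting interval. Dotted lines mark 2-fold. ND2 has the highest ratio, 11.4-fold, and ND6 is the only gene left of 0.

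Within the ribosomal RNA the lists differed in blocks. The cluster at 2341 to 2370 of mt-Rnr2 held 481 SRSF3 cDNAs and 6 SRSF7 cDNAs. On either side, the stretch at 2186 to 2276 held 0 SRSF3 cDNAs and 1409 SRSF7 cDNAs, and the stretch at 2407 to 2437 held 0 SRSF3 cDNAs and 426 SRSF7 cDNAs. Neither flanking stretch holds a listed SRSF3 position, although SRSF3 had more cDNAs than SRSF7 over mt-Rnr2 as a whole, 13149 against 12504. In ND5, the cluster at 13299 to 13542 held 688 SRSF3 cDNAs over 157 positions and 7 SRSF7 cDNAs over 3 positions.

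On the nuclear chromosomes the shares mostly ran the other way. The shares of a list add up to the whole, so the larger mitochondrial share of SRSF3 leaves less for its nuclear chromosomes. Of 19 autosomes and X, SRSF3 had the higher share on 5 (chromosomes 6, 9, 13, 17 and 18) and SRSF7 on 15. Chromosome 19 was lowest, with 1.89% of SRSF3 and 3.67% of SRSF7 cDNAs, 0.52-fold. Chromosome 15 held 1.43% of SRSF3 and 2.64% of SRSF7 cDNAs, and X held 1.45% and 2.64%. Chromosome 6 was highest, with 6.43% of SRSF3 and 4.37% of SRSF7 cDNAs, 1.47-fold. Chromosome 17 carried the most in both lists, 23.9% for SRSF3 and 22.0% for SRSF7. Most of it lay at the leading locus, with 21.9% of the SRSF3 and 17.3% of the SRSF7 list, and outside that locus SRSF7 had the higher share.

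That locus, chromosome 17 plus strand from 39979938 to 39985047, held 56237 SRSF3 cDNAs and 63591 SRSF7 cDNAs. Its log2 ratio was 0.34 (0.32 to 0.35). The positions numbered 2103 for SRSF3 and 2251 for SRSF7, and 90.4% of the SRSF3 cDNAs and 85.2% of the SRSF7 cDNAs of the locus lay beyond 3400 nt from its start. The profiles across it were alike in outline and differed in detail. In windows of 100 nt the profiles correlated across the 52 windows (Pearson r = 0.81), and 79.7% of the cDNAs overlapped once each profile was scaled to its own total. At single nucleotides r was 0.63 and the overlap was 67.8%. These windows come from 1 locus and the same lists, so the coefficients are descriptions without a test.

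The largest departures lay side by side near the end of the locus. Between 4601 and 4700 nt from its start lay 16.8% of the SRSF3 cDNAs and 8.08% of the SRSF7 cDNAs of the locus. In the window before, 4501 to 4600 nt, lay 5.50% of the SRSF3 cDNAs and 10.9% of the SRSF7 cDNAs. The highest SRSF3 position, 39984604, carried 1540 SRSF3 cDNAs and 582 SRSF7 cDNAs, and position 39984611, 7 nt further, carried 1184 and 203. The 3 highest SRSF7 positions were spaced by 14 nt each. Position 39984422 carried 382 SRSF3 cDNAs and 1071 SRSF7 cDNAs, position 39984436 carried 240 and 859, and position 39984450 carried 109 and 848. SRSF7 had the higher share at all 3, with log2 ratios of -0.97, -1.33 and -2.45.

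**Figure D3:**
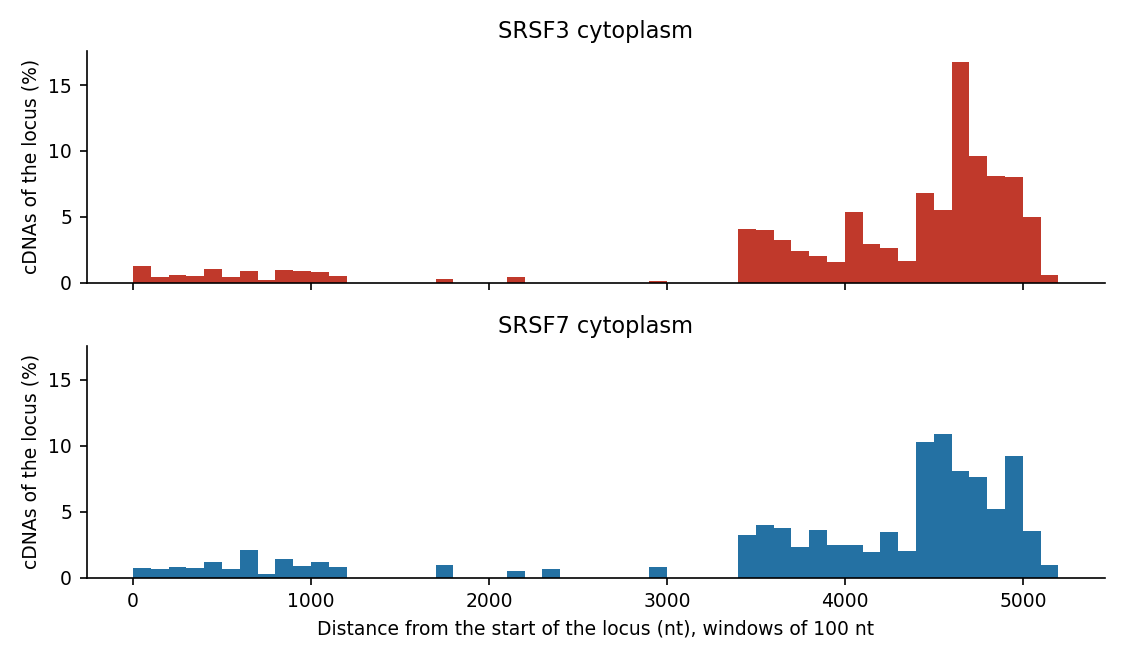
Share of the cDNAs of the leading chromosome 17 locus in windows of 100 nt, by distance from the start of the locus, for SRSF3 (upper, red) and SRSF7 (lower, blue) in cytoplasm. Both profiles rise after 3400 nt, and the SRSF3 maximum of 16.8% lies in the window that follows the SRSF7 maximum of 10.9%.

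Clusters gave a finer view than loci. Joining positions of the 2 cytoplasm lists within 30 nt gave 40916 clusters, 11739 of them with SRSF3 and 33394 with SRSF7 positions. Both proteins were listed in 4217, which are 35.9% of the SRSF3 clusters and 12.6% of the SRSF7 clusters. These shared clusters held 88.3% of all SRSF3 cDNAs and 64.0% of all SRSF7 cDNAs. Among 1855 clusters with at least 20 cDNAs together and at least 1 in each list, SRSF3 was higher beyond 2-fold at 329 (17.7%) and SRSF7 at 124 (6.68%). Another 94 clusters of at least 20 cDNAs were listed for SRSF3 alone and 473 for SRSF7 alone, and these did not enter that comparison. Of 355 loci with called clusters, 8 held clusters called in each direction, including the chromosome 17 lead locus and the chromosome 19 locus above.

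The positions of the proteins coincided more the higher they were. Of the SRSF3 positions, 53.4% lay within 5 nt of an SRSF7 position, and 30.4% were the same nucleotide. Of the more numerous SRSF7 positions, 21.9% lay within 5 nt of an SRSF3 position, and 12.5% were the same nucleotide. Among positions with a single cDNA, the same nucleotide was listed for the other protein at 16.6% for SRSF3 and 5.88% for SRSF7. Among positions with 100 or more cDNAs it was listed at 94.5% for SRSF3 (273 of 289) and 96.6% for SRSF7 (284 of 294). Counted in cDNAs, 82.5% of SRSF3 and 57.3% of SRSF7 cDNAs lay within 5 nt of the other protein.

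Listing of the other protein fell off with distance. Outside the mitochondrial genome and the highest loci, SRSF7 was listed at the very nucleotide of 79.7% of the 3136 SRSF3 positions with 6 or more cDNAs. At 1 nt on either side this was 62.2% and 63.4%, at 10 nt 30.1% and 33.0%, and at 50 to 100 nt it averaged 2.76%. The converse, SRSF3 around the 3182 SRSF7 positions of that height, was 76.5% at the same nucleotide and 2.49% at 50 to 100 nt. Around the 3136 SRSF3 positions, SRSF3 itself was listed at 73.0% and 71.1% at 1 nt and 37.1% and 37.3% at 10 nt. At 50 to 100 nt it averaged 2.55%, so positions of the SRSF3 list alone fell off much alike. At the 17829 nucleotides listed for both, the counts of the proteins rose together (Spearman rho = 0.66). Outside the mitochondrial genome and the highest loci rho was 0.55 over 12365 nucleotides. These nucleotides come from the same pair of lists, and the coefficients are given without a test.

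**Figure D4:**
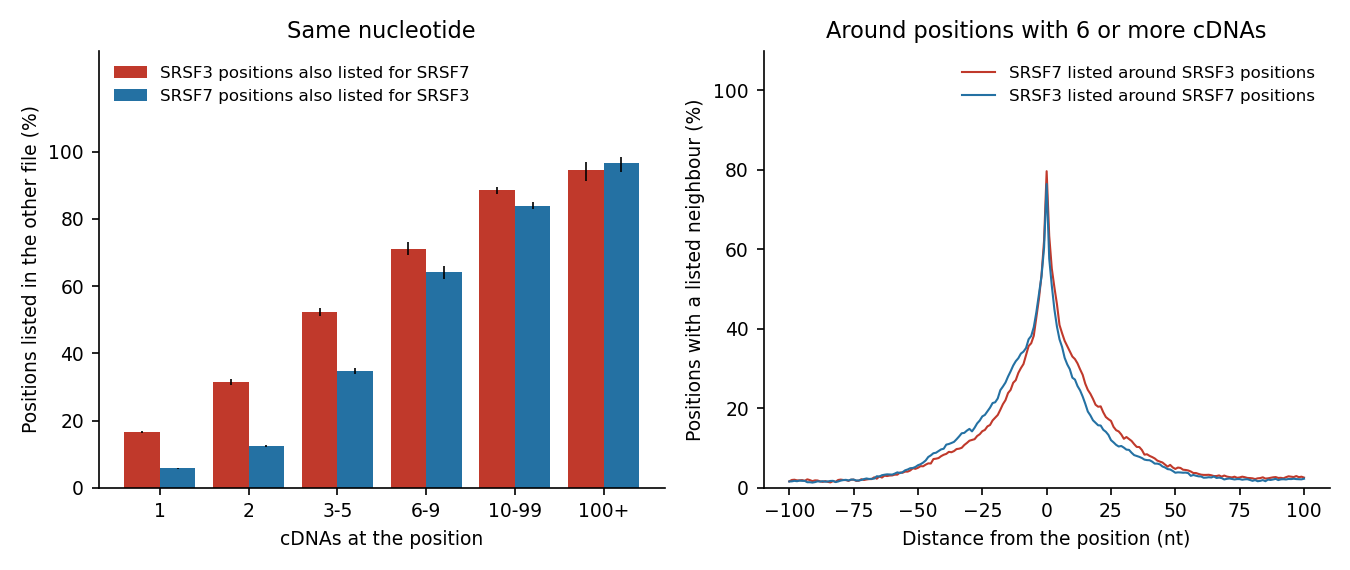
Left, percent of positions whose nucleotide is also listed for the other protein, by cDNAs at the position, for SRSF3 (red) and SRSF7 (blue), with exact 95% intervals for counting error. Right, percent of positions of 6 or more cDNAs with a listed position of the other protein at each distance, outside the mitochondrial genome and the highest loci. Sharing rises from 16.6% (SRSF3) and 5.88% (SRSF7) at 1 cDNA to 94.5% and 96.6% at 100 or more, and the profiles peak at 0 nt.

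The summit of a locus was often the same nucleotide. Of 162 loci with at least 100 cDNAs for each protein, the highest position coincided in 59 and lay within 5 nt in 85. The share of overlapping cDNAs, each profile scaled to its own total in windows of 10 nt, had a median of 73.6%. Loci under 1 kb had a median overlap of 83.7% (59 loci), and longer ones 58.5% (103 loci). The 10 SRSF7-higher loci of this size overlapped least, with a median of 28.6%, against 76.2% for the 31 SRSF3-higher loci. Among these 10, the 40 nt locus on chromosome 2 overlapped by 90.6% and the 196 nt locus on chromosome 16 by 81.7%. The rest spanned 7255 nt or more, so the call was not separated from the span.

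The loci called in cytoplasm were then followed in the other fractions, whose lists come from different libraries. In nucleoplasm, 87 of the 121 SRSF3-higher loci could be compared. Of these, 31 were SRSF3-higher there too (35.6%) and 2 SRSF7-higher (2.30%), against 12.7% and 18.3% of all 1093 loci compared in nucleoplasm. Of the 608 loci compared in both cytoplasm and nucleoplasm, 16.1% were SRSF3-higher and 16.4% SRSF7-higher in nucleoplasm. Of the 179 SRSF7-higher loci, 117 could be compared, and 4 were SRSF3-higher and 48 SRSF7-higher (41.0%). In nucleoplasm the cytoplasmic direction thus recurred at a share above that of these 608 loci for both proteins. How much cytoplasmic RNA the nucleoplasm lists carry was not tested.

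Chromatin looked different for the SRSF3-higher loci. Of the 78 that could be compared there, 4 were SRSF3-higher and 33 SRSF7-higher (42.3%), against 21.4% and 17.2% of all 1358 loci compared in chromatin. Of the 537 loci compared in both cytoplasm and chromatin, a closer match, 13.8% were SRSF3-higher and 29.1% SRSF7-higher in chromatin. The median log2 ratio of the 78 loci was -0.91 in chromatin and 1.86 in cytoplasm. Loci that were in neither set in cytoplasm also leaned this way in chromatin, with 114 of 366 SRSF7-higher (31.1%) and a median of -0.77. Of the 93 comparable SRSF7-higher loci of cytoplasm, 23 were SRSF3-higher in chromatin (24.7%) and 9 SRSF7-higher (9.68%). The first share is above and the second below those of the 537 loci. The median log2 ratio of the 93 was 0.88 in chromatin, with 72 above 0 and 21 below. The chromatin lists differ most in depth, with 1768665 SRSF3 cDNAs and 248498 SRSF7 cDNAs, so all lists were also thinned at random to the smaller total. Of the 47 SRSF3-higher loci of cytoplasm then compared, 20 were SRSF7-higher in chromatin (42.6%), against 12.4% of all loci compared in chromatin. Of the 71 SRSF7-higher loci then compared, 19 were SRSF3-higher in chromatin (26.8%), against 31.4% of all loci compared there, so this share was no longer above that of all loci. The shares among loci compared in both fractions, the closer match, were not computed after thinning.

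**Figure D5:**
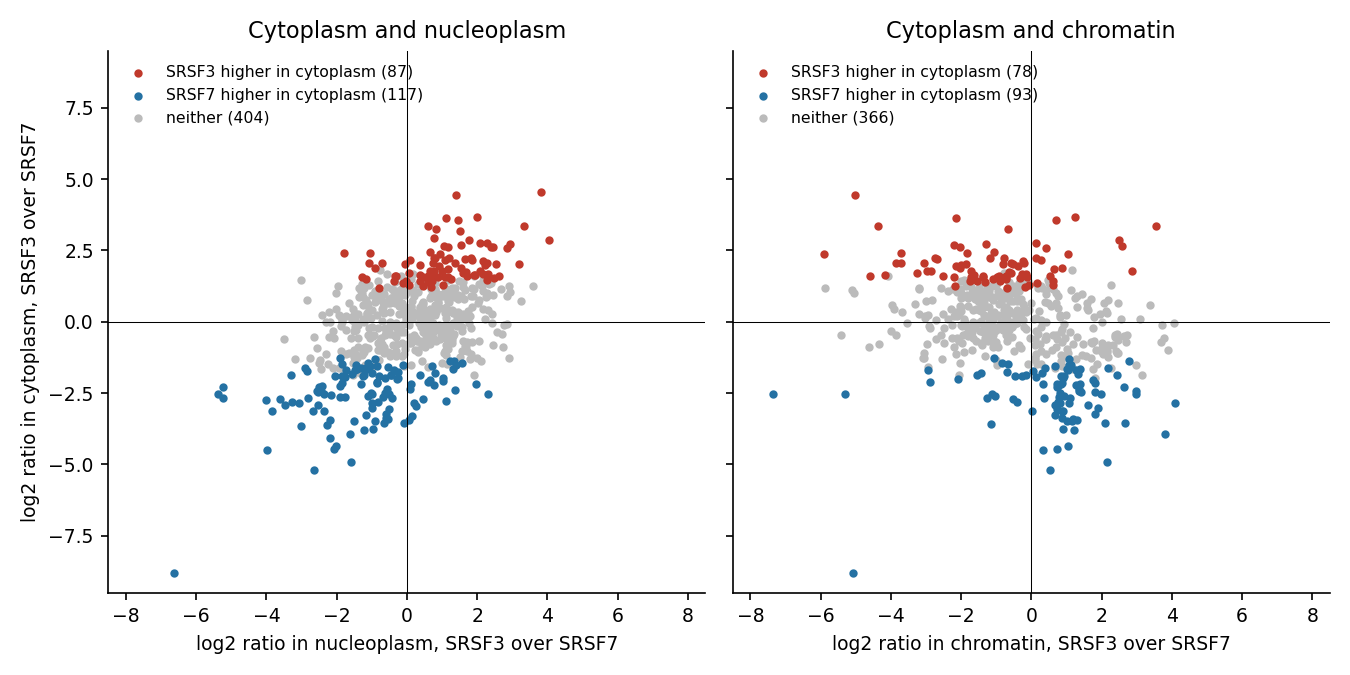
log2 ratio of SRSF3 over SRSF7 in cytoplasm (vertical) against the same ratio in nucleoplasm (left) and chromatin (right) for loci compared in both fractions. Red points are SRSF3-higher and blue points SRSF7-higher in cytoplasm. In nucleoplasm 73 of 87 red points lie right of 0, and in chromatin 61 of 78 lie left of it.

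Of 468 loci compared in all 3 fractions, 1 was SRSF3-higher and 4 were SRSF7-higher in all 3. The SRSF3-higher one was the chromosome 17 plus-strand locus at 29164512 to 29186676, with 384 SRSF3 cDNAs and 53 SRSF7 cDNAs in cytoplasm. Its log2 ratio was 3.37 in cytoplasm, 3.34 in nucleoplasm and 3.55 in chromatin, so it hardly varied between fractions. The SRSF7-higher ones included the chromosome 17 minus-strand locus, at -8.80, -6.62 and -5.08 in the same order, and the chromosome 19 locus, at -1.26, -1.90 and -1.06. The other pair lay on chromosome 3 at 108357276 to 108372590, minus strand, and on chromosome 12 at 110781914 to 110809746, plus strand. In cytoplasm they held 17 SRSF3 and 88 SRSF7 cDNAs, and 33 SRSF3 and 275 SRSF7 cDNAs. Whether any of these loci holds the gene of a tagged protein was not checked.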

How the data were processed

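The authors deposited 1 list of crosslink positions per group, with replicates pooled before deposit, so replicates could not be compared. Column 4 holds a signed whole number, a value of its own kind (other unit) deposited by the authors, read here as the cDNA count with the sign as the strand, an inference checked on mitochondrial light-strand genes. Per the file headers, the authors kept positions at FDR < 0.05 (100 permutations, 15 nt neighbourhood). SRSF7 track names mention regions handled as one where their descriptions say separately, so peak calling may differ between the proteins. No source used here gives the aligner or the duplicate removal. Coordinates are of mm9, per the submitters' processing notes, 1-based.

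The values were used unscaled, all positions kept. Loci (10000 nt gap) and clusters (30 nt gap) were built, shares and exact intervals computed with Python 3.11.15, pandas 2.3.3, numpy 2.4.6 and scipy 1.17.1, and figures drawn with matplotlib 3.10.9. The call rule was tested on simulated counts drawn independently, which does not cover duplicated cDNAs, replicate spread or the authors' filter. No p-value was computed, since each group is 1 value. Loci named are the 10 highest of each list, the 10 highest and 10 lowest called ratios and up to 5 listed in 1 file only, clusters the 8 highest and lowest called ratios, positions the 5 highest of each list; other items were chosen after their values were seen. All members and rules were chosen with earlier results of these data known. Alternatives covered depth, gaps, thresholds, scaling and regions.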

Additional observations from a re-analysis of the deposited data

Results flagged for a closer look

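At 6 of the loci with the highest shares or the most extreme cytoplasmic ratios, the SRSF3 to SRSF7 ratio ran one way beyond 2-fold in cytoplasm and the opposite way beyond 2-fold in chromatin, each protein and fraction with its own libraries. With 1 pooled list per group the difference between the fractions was not tested. The loci were drawn from 58 at which the cytoplasm call was reversed in chromatin or nucleoplasm, 33 of them SRSF3-higher in cytoplasm and SRSF7-higher in chromatin, and 23 the other way round. The 33 are 42.3% of the 78 such loci compared in chromatin, against 29.1% of the 537 loci compared in both fractions. The 23 are 24.7% of 93, against 13.8% of the 537 and 21.4% of all 1358 loci compared in chromatin. With all lists thinned to the smallest total, this share was 26.8%, against 31.4% of all loci compared there. Loci in neither set in cytoplasm also leaned to SRSF7 in chromatin, with a median log2 ratio of -0.77.

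SRSF3 led in cytoplasm at 4 of the 6. The chromosome 9 minus-strand locus at 78023133 had a log2 ratio of 1.27 in cytoplasm and -2.19 in chromatin. The chromosome 18 minus-strand locus at 73692985 had 2.05 in cytoplasm and -3.70 in chromatin. The chromosome 11 plus-strand locus at 68884516 had 3.66 in cytoplasm and -2.13 in chromatin. The chromosome 7 minus-strand locus at 111785248, 5 nt long, had 4.46 in cytoplasm and -5.01 in chromatin. Its chromatin ratio rested on 13 SRSF3 and 59 SRSF7 cDNAs, each on 2 positions.

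SRSF7 led in cytoplasm at the other 2, both long. The chromosome 3 plus-strand locus at 129235325 had -4.90 in cytoplasm and 2.16 in chromatin. The chromosome 1 minus-strand locus at 135496376 had -3.93 in cytoplasm and 3.81 in chromatin. These rested on 11 SRSF3 cDNAs in cytoplasm and 16 SRSF7 cDNAs in chromatin, near the same minimum.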

How the results depend on the processing

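No paired analysis was possible because the replicates of each group were pooled before deposit, so no replicate could be left out either. The counts of called loci (121 SRSF3-higher, 179 SRSF7-higher) stayed within 1.5 times after thinning the SRSF7 list to the SRSF3 total (90 and 174), with a gap of 1000 nt (134 and 120), with loci from the 2 cytoplasm lists (125 and 165), with mitochondrial RNA and the 10 highest loci left out (172 and 126), and, added after seeing the data, with ratios centred on their median (135 and 159) or without the mitochondrial genome (139 and 157). They fell to 52 and 51 with positions of at least 3 cDNAs, to 52 and 99 with at least 200 cDNAs per locus, and to 77 and 69 with positions counted in place of cDNAs. SRSF7-higher loci were thus fewer than SRSF3-higher ones under 4 of these 9 alternatives. The ratio of median spans, 0.12, reversed to 1.70 with positions of at least 3 cDNAs. It was 0.14 with the SRSF7 list thinned (added after seeing the data), where the other lists, not thinned, still helped to set the spans. The ratio moved to 0.045 with a gap of 1000 nt and to 0.023 with loci from the cytoplasm lists.

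The mitochondrial ratio, 1.88-fold, was 1.42-fold with positions of at least 3 cDNAs, 3.55-fold in positions and 1.99-fold without the highest locus. The share of SRSF3 positions within 5 nt of SRSF7 (53.4%) was 30.4% at the same nucleotide, 63.1% within 30 nt, 67.0% with at least 3 cDNAs, 82.5% in cDNAs and 48.4% with those regions left out. The share of SRSF7 positions near SRSF3 (21.9%) was 12.5%, 27.4%, 53.6%, 57.3% and 18.0% in the same settings. Clusters kept their counts within 1.5 times at gaps of 15 and 60 nt. With positions of at least 3 cDNAs, shared clusters fell to 1492 and SRSF3-higher clusters to 143, while SRSF7-higher clusters numbered 125 (124 with all positions).

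For the comparison with chromatin all alternatives were added after seeing the data. The 33 SRSF3-higher loci that were SRSF7-higher in chromatin became 14 with positions of at least 3 cDNAs, 53 with those regions left out and 20 with all lists thinned to the smallest. As shares of the comparable loci these are 48.3%, 47.7% and 42.6%, against 23.8%, 22.6% and 12.4% of all loci compared in chromatin under the same settings (42.3% against 17.2% before). The 23 SRSF7-higher loci that were SRSF3-higher in chromatin became 5 with positions of at least 3 cDNAs, 12 with loci from the cytoplasm lists, 10 with those regions left out and 13 with centred ratios. Their shares are 23.8%, 17.6%, 15.4% and 15.5%, against 15.4%, 8.90%, 15.4% and 17.9% of all loci (24.7% against 21.4% before), so they lay above the share of all loci in the first pair of settings and not in the second. With all lists thinned to the smallest they numbered 19. Their share was then 26.8%, against 31.4% of all loci, again not above it. Before any alternative, the closer match of 537 loci compared in both fractions gave 29.1% SRSF7-higher and 13.8% SRSF3-higher in chromatin. Those shares were not computed under the alternatives. Depth limits what a missing position shows, and pooled lists leave replicate spread unknown.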

Other observations

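The loci around the most extreme ratio were looked up after its value was seen, taking all loci within 400 kb with at least 30 cDNAs over the 6 lists. On both strands of chromosome 17 between 80579922 and 80694924, 5 loci had more SRSF7 than SRSF3 cDNAs over the 3 fractions together. The minus-strand pair, at 80586414 and 80637679, held 13 and 0 SRSF3 cDNAs and 8257 and 600 SRSF7 cDNAs in cytoplasm. The 3 plus-strand loci, at 80579922, 80621292 and 80689635, held no SRSF3 cDNA in any fraction and 16, 111 and 67 SRSF7 cDNAs in cytoplasm. The 3 remaining loci lay outside this stretch, at 80244181, 80332689 and 80427521 on the minus strand, and held 170, 10 and 217 SRSF3 cDNAs and 0 SRSF7 cDNAs in chromatin. In cytoplasm these held 0, 12 and 0 SRSF3 cDNAs and 86, 4 and 12 SRSF7 cDNAs. SRSF7 cDNAs were thus listed on both strands around the locus with the lowest ratio.

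The neighbourhood of the locus with a higher SRSF3 share in all 3 fractions was less uniform. Beside 384 SRSF3 and 53 SRSF7 cytoplasm cDNAs at 29164512 on the plus strand, the minus-strand locus at 29180909 held 85 SRSF3 and 3 SRSF7 cDNAs, and the one at 29291288 held 211 SRSF3 and 13 SRSF7 cDNAs. The minus-strand locus at 29107889 held 1 SRSF3 and 0 SRSF7 cDNAs in cytoplasm, although it held 604 SRSF3 and 11 SRSF7 cDNAs in chromatin.

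Mitochondrial RNA differed more between the proteins in nucleoplasm than in cytoplasm. It held 9.79% of SRSF3 and 1.44% of SRSF7 cDNAs in nucleoplasm, against 16.7% of SRSF3 and 8.89% of SRSF7 cDNAs in cytoplasm, and this difference between fractions was not tested. In nucleoplasm mt-Rnr2 alone held 22509 SRSF3 cDNAs and 2786 SRSF7 cDNAs.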
